A study of Mus musculus with 2 samples.

Results

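Interferon gamma, its receptor and the proteins that carry and limit its signal were followed through 7 genes: Ifng, Ifngr1, Ifngr2, Jak1, Jak2, Irf1 and Socs1. They were taken by symbol, and all 7 were present among the 32285 genes of the single-cell count matrices. The study profiled T cells from mouse lung tumours in 2 droplet libraries, 1 per group. LYZKL came from chimeric mice made from Tmem173fl/fl;Lyz2-Cre and from a partner that carries Lkb1fl/fl. WTKL came from chimeric mice made from Tmem173fl/fl and the same partner genotype. Both groups thus share the floxed Tmem173 and Lkb1 alleles, and differ in Lyz2-Cre. Both were given Ad-Cre, an adenovirus carrying Cre recombinase, through the nose, and CD4pos and CD8pos cells were sorted from the tumours at 8 weeks. The treatment label of WTKL also lists tamoxifen, which that of LYZKL does not. Lyz2-Cre is active in the myeloid lineage, and Tmem173 codes for STING, the adaptor of cytosolic DNA sensing. The labels give neither the number of mice in a library nor the blood cells that the hosts retained. With 1 library per group there was no test between groups and no p-value. Every interval is a 95% interval of counting error only, and the spread between mice is not in it.

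Interferon gamma is a cytokine that T cells and natural killer cells secrete. It binds a receptor whose ligand-binding chain is IFNGR1 and whose signalling chain is IFNGR2. The kinases JAK1 and JAK2 sit on those chains and start a signal that reaches GAS elements near the target genes. IRF1 is an early target and itself a transcription factor that binds ISRE-type elements, and SOCS1 is a target that inhibits the kinases. In tumours the cytokine is known for raising antigen presentation, the guanylate-binding proteins (Gbp) and chemokines such as Cxcl10, and developing type 1 helper T cells are known to lower IFNGR2.

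The sequences upstream of the ligand gene and of Irf1 and Socs1 are shown because the last 2 are the members known as targets of the signal. Whether their levels measure that signal here was not tested. Each run holds the 250 bases before the RefSeq start of the gene in GRCm38.p6, 5′ to 3′ on the gene's own strand. Capitals mark letters that match GAS (TTCNNNGAA) or an ISRE-type pattern (a pair of GAAA runs with any 2 bases between them), both searched on both strands.
Irf1, chr11:53769764-53770013, plus strand: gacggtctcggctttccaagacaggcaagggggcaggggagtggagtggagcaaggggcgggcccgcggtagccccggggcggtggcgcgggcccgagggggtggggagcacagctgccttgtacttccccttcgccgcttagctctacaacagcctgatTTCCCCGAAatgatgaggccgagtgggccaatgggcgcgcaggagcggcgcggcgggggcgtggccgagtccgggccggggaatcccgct
Socs1, chr16:10785537-10785786, minus strand: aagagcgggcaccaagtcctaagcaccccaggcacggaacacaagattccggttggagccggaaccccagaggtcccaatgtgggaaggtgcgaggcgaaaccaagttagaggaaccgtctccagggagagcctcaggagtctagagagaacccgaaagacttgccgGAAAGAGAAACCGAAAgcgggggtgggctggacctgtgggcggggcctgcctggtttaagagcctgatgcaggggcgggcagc
Ifng, chr10:118440796-118441045, plus strand: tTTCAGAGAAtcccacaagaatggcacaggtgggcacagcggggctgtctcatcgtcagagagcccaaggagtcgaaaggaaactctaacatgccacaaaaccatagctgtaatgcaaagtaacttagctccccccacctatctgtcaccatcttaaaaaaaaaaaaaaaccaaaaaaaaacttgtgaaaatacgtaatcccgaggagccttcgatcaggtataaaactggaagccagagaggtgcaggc
RefSeq lists 2 windows for Irf1, and the other one held no match. The Irf1 run shown holds a GAS match that begins 90 bases before the start. The Socs1 run holds 2 overlapping ISRE-type matches, the first beginning 83 bases before the start. In the Ifng run a GAS match begins 249 bases before the start. GAS letters were in 8.30% of 32851 mouse promoter windows of 300 bases and ISRE-type letters in 3.44%. The windows of Ifngr1, Ifngr2, Jak1 and Jak2 held neither. A match describes these letters and is not evidence of binding.

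In mm10, Ifng lies at chr10:118441046-118445892 and Ifngr1 at chr10:19591949-19610229, both on the plus strand. Ifngr2 lies at chr16:91547072-91565623, Jak2 at chr19:29251828-29313080 and Irf1 at chr11:53770014-53778374, also on the plus strand. Jak1 lies at chr4:101152367-101265282 and Socs1 at chr16:10782240-10785536, both on the minus strand. Jak1 overlaps Raver2 on the opposite strand, and the counter's use of strand is not given in the sources used here.

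The matrices held 13607 LYZKL and 12204 WTKL barcodes, where the labels state 7202 and 6609 cells, and 100 barcodes occurred in both. After filters on detected genes, mitochondrially coded RNA and predicted doublets, 12004 LYZKL and 10850 WTKL cells remained, with a median of 5074 and 4677 UMIs (unique molecular identifiers, each standing for 1 captured RNA). Clustering without the 7 genes, their pathway and other interferon response genes gave 20 clusters. The 17 with at least 100 cells in each library were compared. Among T-lineage clusters, 3 was CD8 T cell-like (Eomes, Gzmk), 17 naive CD8 T-like, 0, 1 and 6 CD4 conventional T cell-like, 2 naive CD4 T-like, 12 Treg-like (Foxp3) and 18 cycling cell-like. Cluster 1 was led by genes that include Cxcr5 and Il21, and cluster 6 by Il22 and Ccr6. Clusters 4, 5 and 11 took no name, because among their top genes another class had more markers than their own. Cluster 4 is led by Styk1, Klri2 and Prf1 and had 701 CPM of Cd8a in LYZKL and 786 in WTKL. Cluster 5 is led by Ccl20, Il17a and Il17f and had 418 CPM of Cd4 in LYZKL and 433 in WTKL. Cluster 11 is led by Klra7, Gzmf, Klrb1c and Gzma and differed between the libraries in its makeup, with 256 CPM of Cd8a in LYZKL and 493 in WTKL. The sort for T cells was not clean: clusters 7, 8 and 9 were neutrophil-like, 14 B cell-like, and 15 and 16 macrophage or monocyte-like. Levels are a gene's UMIs divided by all UMIs of the cluster, on the usual CPM scale. They are compared between clusters or libraries for 1 gene and not between genes. Tmem173 itself was at 2.06 CPM in LYZKL (1 UMI) and 36.7 in WTKL in cluster 9, at 3.63 and 9.64 in cluster 7, and at 57.6 and 57.8 in the macrophage-like cluster 15. T cell markers in cluster 9 were also lower in LYZKL. In CD4 T-lineage clusters Tmem173 was higher in LYZKL, at 87.1 CPM in LYZKL and 33.3 in WTKL in cluster 12, 72.9 and 31.7 in cluster 1, 49.1 and 20.3 in cluster 6 and 43.2 and 20.2 in cluster 0. Which exons carry the flox sites is not given, and the deletion cannot be checked from these levels.

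Ifng was made by few kinds of cell. Clusters 3, 4, 5 and 11 held 33.5% of LYZKL cells and 23.4% of WTKL cells but 81.1% of 11689 Ifng UMIs in LYZKL (80.4 to 81.8%, Clopper-Pearson) and 66.4% of 5932 in WTKL (65.2 to 67.6%). Cluster 4 alone gave 36.3% of the LYZKL and 20.5% of the WTKL Ifng UMIs, from 1418 and 258 cells. The cycling cluster 18 gave 5.69% in LYZKL and 12.2% in WTKL. The sort and the size of the clusters can set such shares.

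The level of Ifng spanned 174-fold over the 17 clusters in LYZKL and 216-fold in WTKL. In LYZKL the order began with cluster 11 (719 CPM, Poisson interval 663 to 777), cluster 4 (608, 590 to 627), cluster 3 (433, 415 to 452) and cluster 5 (262, 252 to 273). In WTKL it began with cluster 4 (855 CPM, 807 to 904), cluster 11 (342, 320 to 366), cluster 3 (275, 257 to 294), cluster 18 (162, 150 to 174) and cluster 5 (158, 148 to 168). Neighbours in these orders stood apart, except clusters 18 and 5 in WTKL, whose intervals overlap. Cluster 11 was 1.18-fold above cluster 4 in LYZKL (1.08 to 1.29), whereas in WTKL it was at 0.400 of it (0.366 to 0.437). Lower down the order most neighbours overlapped, 10 of 16 neighbouring pairs in LYZKL and 12 of 16 in WTKL in all.

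**Figure D1:**
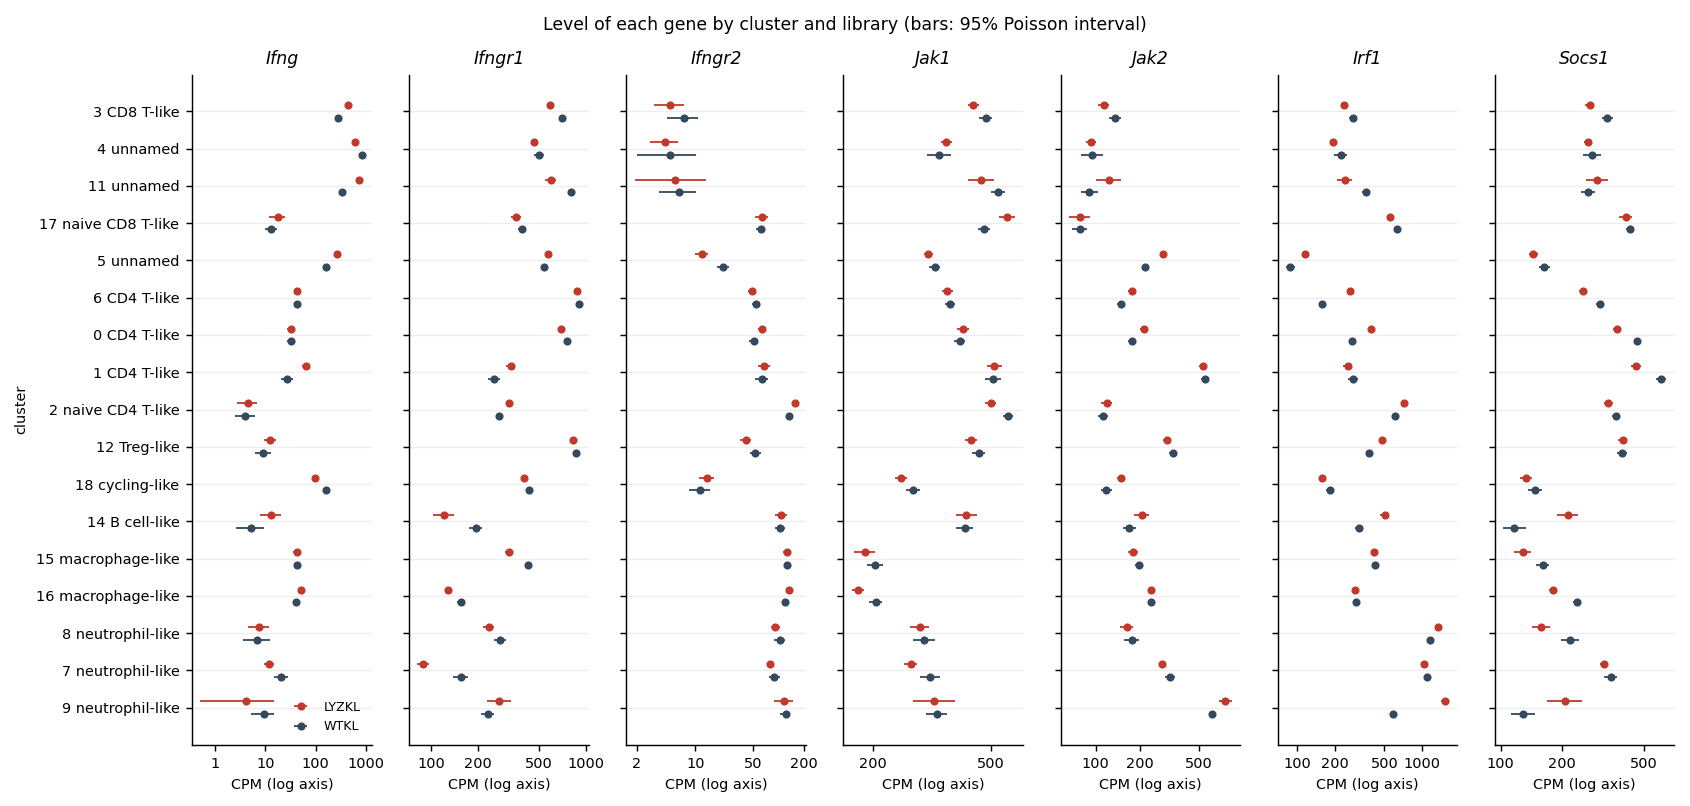
Level in CPM (log axes, which differ between panels) of the 7 genes in the 17 compared clusters, LYZKL in red above WTKL in blue, with bars for the 95% Poisson interval. Ifng is highest in clusters 3, 4 and 11, where Ifngr2 is lowest in both libraries. Irf1 is highest in neutrophil-like clusters 9, 8 and 7 in LYZKL and in 8 and 7 in WTKL.

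Cells that should lack the gene gave the background. After each cell was thinned to 2000 UMIs, which left out 698 LYZKL and 560 WTKL cells, the share with an Ifng UMI was 2.02% in LYZKL and 0.969% in WTKL in the B cell-like cluster 14. Over the 3 neutrophil-like clusters it was between 1.03 and 1.92% in LYZKL and between 0.850 and 2.48% in WTKL. The naive clusters 2 and 17 and the Treg-like cluster 12 had between 0.837 and 2.52% in LYZKL and between 0.894 and 1.36% in WTKL. The highest of these, cluster 17 in LYZKL, has an interval of 0.931 to 5.41%, which overlaps that of cluster 14 (0.817 to 4.12%), so at this depth Ifng in them was not told from background. Unthinned, cluster 17 had 7.38% in LYZKL and 6.35% in WTKL. Its level in WTKL was 13.1 CPM (9.72 to 17.3), above cluster 14 (5.24, 2.62 to 9.38). In LYZKL these intervals overlapped, and in both libraries that of cluster 17 overlapped that of neutrophil-like cluster 7. The background itself holds T cell RNA: 71.0% of LYZKL and 60.2% of WTKL cells of cluster 14 had no UMI of 6 T cell genes. Median depths before thinning were 3407.5 UMIs in LYZKL and 3110 in WTKL in cluster 14, against 3809 and 3993 in cluster 3.

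In the producing clusters a large minority or a majority of cells had the transcript. The thinned share in cluster 4 was 48.4% in LYZKL (45.7 to 51.1%) and 55.8% in WTKL (49.4 to 62.0%). In cluster 11 it was 45.5% in LYZKL (36.5 to 54.8%) and 35.0% in WTKL (30.3 to 40.0%). Cluster 3 had 33.6% in LYZKL (30.7 to 36.5%) and 29.97% in WTKL (26.4 to 33.7%), and cluster 5 had 23.2% (20.9 to 25.7%) and 19.7% (17.4 to 22.1%). In each of these 4 clusters the intervals of the libraries overlap. Unthinned, the shares were 65.8 and 76.0% in cluster 4, 65.6 and 57.6% in cluster 11, 45.5 and 41.9% in cluster 3, and 41.6 and 32.1% in cluster 5, LYZKL first. Cells of cluster 5 had more UMIs in LYZKL (median 6681) than in WTKL (4630).

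Within these clusters a small number of cells carried much of the transcript. Of the Ifng UMIs of cluster 11, cells with at least 10 of them held 69.9% in LYZKL and 37.8% in WTKL. In cluster 4 that share was 41.7% in LYZKL and 60.3% in WTKL, in cluster 5 it was 49.6 and 21.9%, and in cluster 3 it was 43.6 and 30.8%. The highest cell of cluster 3 in LYZKL had 334 Ifng UMIs, 15.9% of all in that cluster and library, where the highest WTKL cell had 64. The highest cells of cluster 5 had 258 in LYZKL and 35 in WTKL. In cluster 11 the highest had 80 in LYZKL and 150 in WTKL. A sum over cells, and so a CPM, therefore turns on these few cells.

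**Figure D2:**
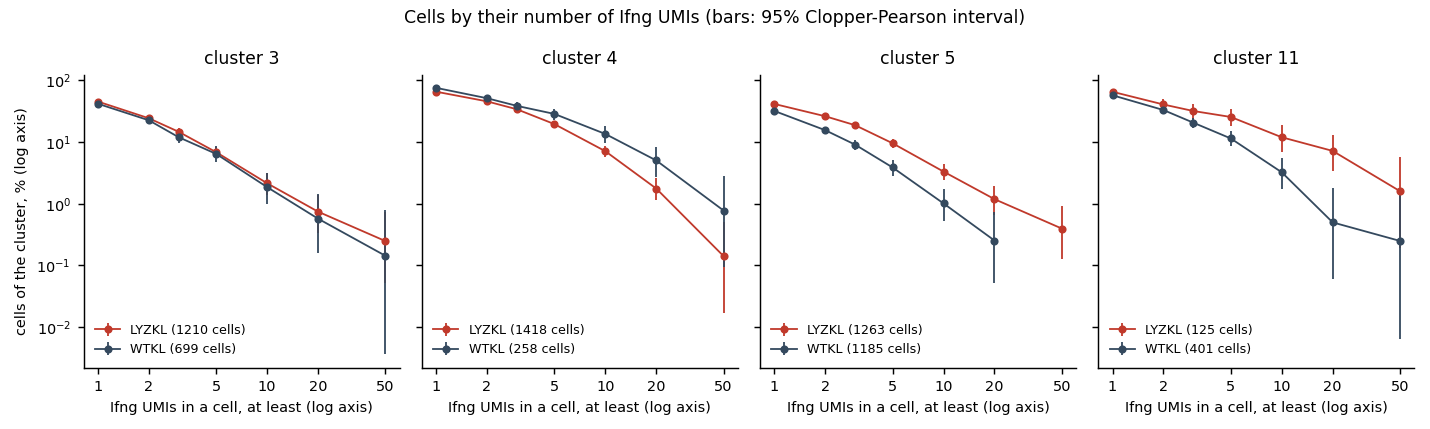
Share of cells (percent, log axis) with at least the number of Ifng UMIs on the x axis (log axis) in clusters 3, 4, 5 and 11, LYZKL in red and WTKL in blue, with 95% Clopper-Pearson bars; a share of 0 (WTKL cluster 5 at 50 UMIs) is not drawn. In cluster 3 the intervals overlap at every number. In cluster 4 the LYZKL curve lies lower, with overlap at 2, 3 and 50 UMIs. In clusters 5 and 11 it lies higher, with overlap at 20 UMIs in cluster 5 and at 1, 2, 3 and 50 in cluster 11. Cells are not thinned here, and those of cluster 5 have more UMIs in LYZKL.

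Between the libraries, Ifng had no single direction. It passed 1.5-fold in 6 of the 13 clusters with enough UMIs, 4 higher and 2 lower in LYZKL. A gene counted as past the fold at a CPM ratio of 1.5 or more either way, with at least 50 UMIs over both libraries and 5 CPM in the higher one. By that rule 8.14% of all genes measured in cluster 3 were past the fold, 11.9% in cluster 4, 8.73% in cluster 5 and 18.4% in cluster 11. The share was 9.19% in cluster 1, 6.03% in cluster 18 and 14.0% in cluster 7. These shares are the yardstick for every count of members below.

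In cluster 11, Ifng was 719 CPM in LYZKL and 342 in WTKL, a log2 ratio of 1.07 (0.92 to 1.22). The ratio stayed near that without the highest cell of each library (1.15) and was 0.56 when no cell was allowed more than 10 Ifng UMIs. Cluster 11 is also where other-cell markers moved: the 6 CD8 T cell markers summed to 10790 CPM in LYZKL and 22894 in WTKL, with 5 of 6 at least 1.5-fold lower (no minimum of UMIs is set for markers). Gzmb, a cytotoxic granule protease, was at 2841 CPM in LYZKL and 5858 in WTKL, and the chemokine gene Xcl1 at 3190 and 318. The part of this makeup in the Ifng ratio was not tested.

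In cluster 5, which expresses Il17a, Ifng was 262 CPM in LYZKL and 158 in WTKL, a log2 ratio of 0.73 (0.63 to 0.84). It was 0.63 without the highest cells and 0.31 with at most 10 UMIs a cell. In cluster 3 the level was 433 CPM in LYZKL and 275 in WTKL, a log2 ratio of 0.65 (0.54 to 0.77). The makeup of cluster 3 differed: 13.9% of its LYZKL cells and 5.72% of its WTKL cells met the CD4 gate, and Gzmb was at 128 and 412 CPM and Xcl1 at 226 and 623. Their part in the ratio was not tested. Without the highest cells the Ifng ratio was 0.51, below 1.5-fold, and with at most 10 UMIs a cell 0.36. Cluster 1, which expresses Cxcr5 and Il21, had 63.7 CPM in LYZKL and 26.7 in WTKL, a log2 ratio of 1.26 (0.79 to 1.74), but 1 LYZKL cell gave 42.4% of its 144 Ifng UMIs. Without the highest cells that ratio was 0.73, and capped at 10 UMIs it was 0.43 with an interval that holds 0.

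These ratios also moved with the filters, the clustering and the weight of single cells. Over the alternatives that gave a matching cluster or class, cluster 1 lay between -0.000188 and 1.52 and cluster 3 between 0.043 and 1.61. Cluster 5 lay between 0.31 and 1.03 and cluster 11 between 0.56 and 1.76. There was no library-level replicate to weigh them by.

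In the other direction, cluster 18 had 96.0 CPM in LYZKL and 162 in WTKL, a log2 ratio of -0.75 (-0.91 to -0.60), and -0.54 when capped. The 6 CD8 markers of that cycling cluster summed to 851 CPM in LYZKL and 2709 in WTKL, and what they contribute was not tested. Cluster 4 had 608 CPM in LYZKL and 855 in WTKL, a log2 ratio of -0.49 (-0.58 to -0.40) that did not pass 1.5-fold. Over the alternatives it lay between -0.60 and 0.66, the last being the value of all cells with CD8 UMIs. The neutrophil-like cluster 7 had 11.9 CPM in LYZKL and 20.7 in WTKL, from 69 and 43 UMIs. All 7 T cell markers were at least 1.5-fold lower in LYZKL there, summing to 227 CPM in LYZKL and 549 in WTKL. In its cells without a UMI of 6 T cell genes, Ifng was 7.05 CPM in LYZKL and 2.86 in WTKL, the opposite direction and from 27 and 3 UMIs. In the remaining T-lineage clusters 0, 6, 2, 12 and 17 no ratio passed 1.5-fold. Cluster 0 had 31.6 CPM in LYZKL and 31.8 in WTKL, and cluster 6 had 41.9 and 42.4.

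The macrophage-like clusters also held Ifng UMIs, 41.6 CPM in LYZKL and 43.2 in WTKL in cluster 15 and 51.4 and 40.7 in cluster 16. T cell RNA was in many of these cells. In cluster 16, 30.04% of LYZKL and 37.8% of WTKL cells met a gate for CD8 T cell UMIs. In the cluster 16 cells without a UMI of 6 T cell genes, Ifng was 2.38 CPM in LYZKL and 4.02 in WTKL, from 6 and 4 UMIs. In those of cluster 15 no Ifng UMI was seen in LYZKL, where 3 counts would be 3.17 CPM, and 3 were seen in WTKL.

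Classes set by marker UMIs of each cell, and not by clustering, gave 1 direction for both T cell arms. In cells with CD8 UMIs, Ifng was 318 CPM in LYZKL (3009 cells) and 201 in WTKL (2318 cells), a log2 ratio of 0.66 (0.60 to 0.72). An Ifng UMI was in 52.2% of these cells in LYZKL (50.4 to 54.0%) and 38.4% in WTKL (36.4 to 40.4%), although the WTKL cells were deeper (median 6109 UMIs, against 4762 in LYZKL). The gate pools clusters: 1324 of its LYZKL cells and 235 of its WTKL cells belonged to cluster 4, and 220 and 464 to the naive cluster 17. In cells with CD4 UMIs the level was 129 CPM in LYZKL and 63.1 in WTKL, a log2 ratio of 1.03 (0.94 to 1.13), with an Ifng UMI in 22.5 and 15.2% of cells at median depths of 6333.5 and 4925 UMIs. Cells with Foxp3 UMIs had 15.9 CPM in LYZKL and 7.70 in WTKL, from 71 and 23 UMIs. The gates for B cells, macrophages and neutrophils had 6.22, 2.51 and 6.16 CPM in LYZKL and 1.42, 2.85 and 4.48 in WTKL. The CD4 gate pools clusters too: 997 of its LYZKL cells and 891 of its WTKL cells belonged to cluster 5. Cluster 3 gave it 168 and 40 cells, and naive cluster 2 gave it 433 and 624. For the CD8 and CD4 gates, how much of the difference is cells of other clusters and how much is level within a cell type was not tested.

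Cells with and without an Ifng UMI were compared within a cluster as a description. The genes of largest ratio in cluster 3 were Xcl1, Furin, Ccl4, Gadd45b and Ccl3, of which 3 code for chemokines, and Xcl1 was 384 CPM in positive and 74.5 in negative LYZKL cells, and 1350 and 53.6 in WTKL cells. In cluster 4 they were Xcl1, Ccl3, Ccl1, Gzmb and Havcr2 (the inhibitory receptor TIM-3), and Gzmb was 893 CPM in positive and 221 in negative LYZKL cells, and 1658 and 672 in WTKL cells. In cluster 5 they were Havcr2, Ccl5, Gcnt2, Fgl2 and Ly6a. Il12rb2, the signalling chain of the interleukin 12 receptor, was 35.3 CPM in positive and 16.5 in negative cells of cluster 3 in LYZKL, and 34.6 and 14.7 in WTKL. Tbx21, the T-bet factor that drives Ifng, was 28.3 and 16.5 CPM in cluster 5 in LYZKL, and 30.7 and 9.62 in WTKL. Positive cells were deeper in cluster 3 (median 4123 and 3579 UMIs in LYZKL, 4227 and 3914 in WTKL), in cluster 4 (4679 and 3743, 4836 and 4127.5) and in cluster 11 (5719.5 and 5043, 5895 and 5026.5), which by itself favours finding a UMI. In cluster 5 they were 6672 and 6681 in LYZKL and 4659.5 and 4600 in WTKL.

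The receptor chains differed in their pattern over T cells, with an r between Ifngr1 and Ifngr2 of -0.22 in LYZKL and -0.34 in WTKL over the 11 T-lineage clusters (log2 levels). Ifngr1, the ligand-binding chain, was present in every cluster. It was highest in cluster 6 (878 CPM in LYZKL, 908 in WTKL) and lowest in neutrophil-like cluster 7 (89.0 in LYZKL, 155 in WTKL). The producing clusters 3, 4, 5 and 11 had between 465 and 594 CPM in LYZKL and between 501 and 806 in WTKL.

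Ifngr2, the signalling chain, was nearly missing where Ifng was made. Cluster 3 had 4.94 CPM in LYZKL and 7.27 in WTKL, cluster 4 had 4.30 and 4.92, and cluster 11 had 5.76 and 6.37. These rest on 24, 30 and 5 UMIs in LYZKL and 23, 7 and 16 in WTKL. Naive CD8 T-like cells of cluster 17 had 62.8 CPM in LYZKL and 60.8 in WTKL, 12.7-fold above cluster 3 in LYZKL (8.15 to 20.6) and 8.35-fold in WTKL (5.43 to 13.4). On the CD4 side, naive cluster 2 was highest of all with 158 CPM in LYZKL and 133 in WTKL. It was 13.2-fold above the Il17a-expressing cluster 5 in LYZKL (10.9 to 16.3) and 6.17-fold in WTKL (5.12 to 7.46). Clusters 0, 1, 6 and 12 lay between 40.7 and 66.3 CPM in LYZKL and between 50.3 and 62.9 in WTKL, and the cycling cluster 18 at 13.9 and 11.4. Non-T clusters were between 79.7 and 132 CPM in LYZKL and between 89.2 and 127 in WTKL. The order was the same at its ends in both libraries, while 14 of 16 neighbouring pairs in LYZKL and 13 of 16 in WTKL overlapped.

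**Figure D3:**
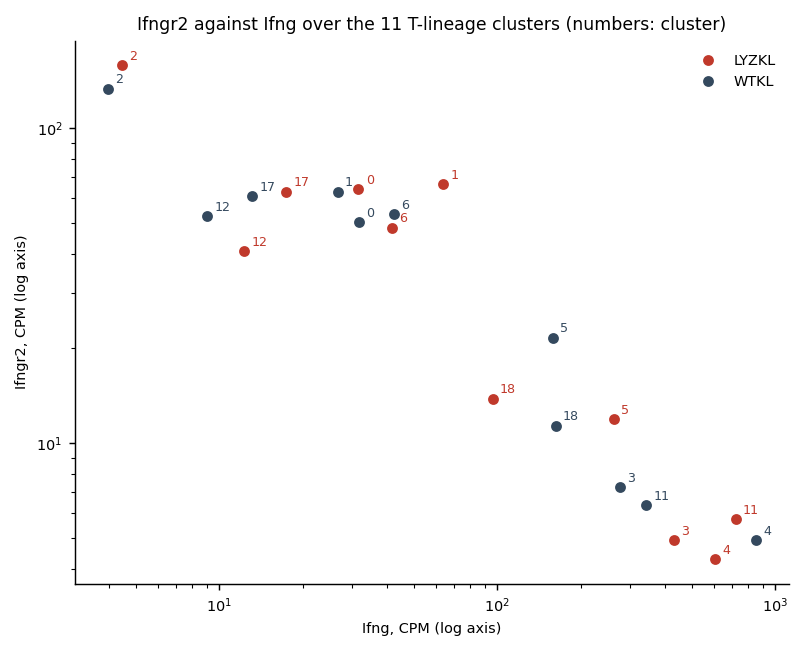
Ifngr2 against Ifng, both in CPM on log axes, over the 11 T-lineage clusters (numbers), LYZKL in red and WTKL in blue. Clusters 3, 4 and 11 lie at high Ifng and low Ifngr2, naive cluster 2 at the opposite corner, and both libraries fall along the same descending band.

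Over the 11 T-lineage clusters the log2 levels of Ifng and Ifngr2 had a Pearson r of -0.94 in LYZKL and -0.96 in WTKL, and a Spearman rho of -0.82 and -0.92. These points share libraries and depth and were drawn from the same clustering. For Ifng and Ifngr1 the r was 0.14 in LYZKL and 0.30 in WTKL.

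Against the 1.5-fold rule, Ifngr1 passed in 2 of 17 clusters and Ifngr2 in 1 of 14, each lower in LYZKL. By the marker gates, Ifngr1 passed in the macrophage gate, with 156 CPM in LYZKL and 249 in WTKL (-0.68, -0.83 to -0.53). Ifngr2 passed in cells with Foxp3 UMIs, with 31.5 CPM in LYZKL and 57.3 in WTKL (-0.86, -1.19 to -0.53). Neither chain passed in the CD8, CD4, B cell and neutrophil gates. The share of all genes past the fold was not taken for the gates. Ifngr2 in cluster 5 was 11.9 CPM in LYZKL and 21.6 in WTKL, a log2 ratio of -0.86 (-1.23 to -0.49), from 114 and 136 UMIs. Macrophages carry far more Ifngr2, and the 12 macrophage markers summed to 235 CPM in LYZKL and 371 in WTKL in cluster 5, 9 of them at least 1.5-fold lower. Their part in the ratio was not tested. Ifngr1 in cluster 7 was 89.0 CPM in LYZKL and 155 in WTKL (-0.80, -1.005 to -0.60). In its cells without T cell RNA it was 77.3 and 119 (-0.63). In B cell-like cluster 14, where 8.71% of genes were past the fold, Ifngr1 was 120 CPM in LYZKL and 194 in WTKL (-0.69, -0.96 to -0.43). The T cell markers of cluster 14 summed to 189 CPM in LYZKL and 474 in WTKL, all 7 at least 1.5-fold lower, and in its cells without T cell RNA Ifngr1 was 119 and 150 (-0.33, -0.69 to 0.021).

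**Figure D4:**
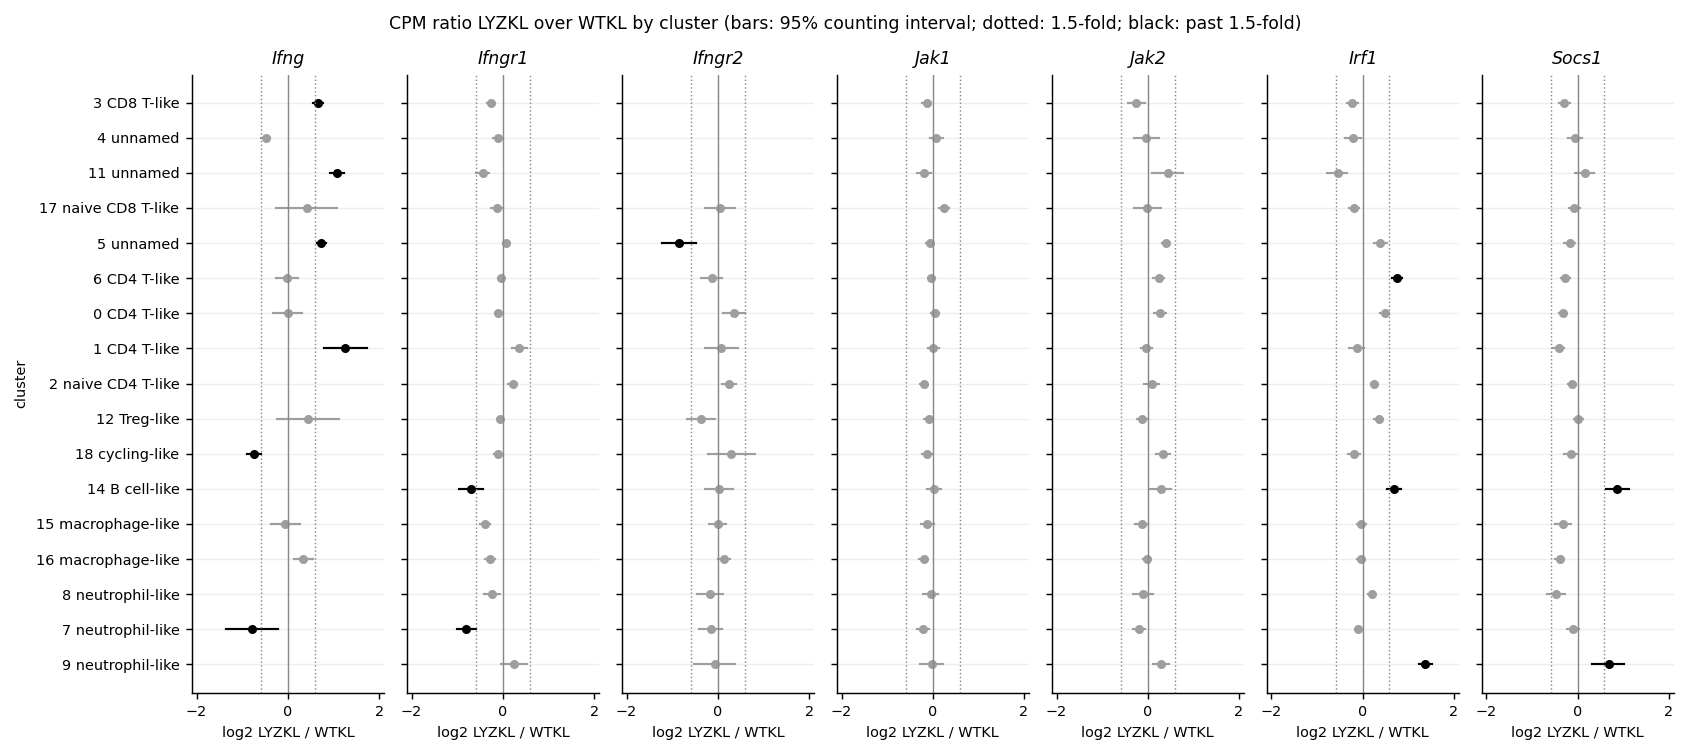
log2 CPM ratio LYZKL over WTKL of the 7 genes in the 17 clusters (points, with 95% counting intervals; pairs under the minimum of UMIs are not drawn), dotted lines at 1.5-fold, black where past it. The 14 black points fall on Ifng (6), Irf1 (3), Ifngr1 (2), Socs1 (2) and Ifngr2 (1), and none on Jak1 or Jak2.

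The kinases varied between cell types and little between libraries. Jak1, shared with many cytokine receptors, spanned 3.17-fold over clusters in LYZKL and 2.79-fold in WTKL and was lowest in the macrophage-like clusters (178 to 188 CPM in LYZKL, 204 to 205 in WTKL). Jak2 was highest in neutrophil-like cluster 9, with 758 CPM in LYZKL and 618 in WTKL, 4.68-fold above neutrophil-like cluster 8 in LYZKL (4.05 to 5.40) and 3.53-fold in WTKL (3.10 to 4.02). Cluster 1 followed with 534 and 547 CPM. Neither kinase passed 1.5-fold in any of 17 clusters. The log2 ratios of Jak1 lay between -0.22 and 0.25, and those of Jak2 between -0.25 and 0.44, the highest in cluster 11 (122 CPM in LYZKL, 90.3 in WTKL).

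Irf1, the early target, was at 1528, 1327 and 1027 CPM in neutrophil-like clusters 9, 8 and 7 of LYZKL, the highest there, and at 590, 1160 and 1101 in those of WTKL. The naive clusters had 718 CPM in LYZKL and 605 in WTKL (cluster 2) and 553 and 629 (cluster 17). In WTKL both lay above neutrophil-like cluster 9, but its interval (554 to 627) overlaps those of cluster 2 (584 to 626) and cluster 17 (604 to 654). It was lowest in cluster 5 (116 CPM in LYZKL, 88.7 in WTKL), 6.19-fold under cluster 2 in LYZKL (5.78 to 6.63) and 6.82-fold in WTKL (6.23 to 7.47). The Ifng producers 3, 4 and 11 had between 193 and 242 CPM in LYZKL, under the median over clusters of 387. In WTKL clusters 3 and 4 had 280 and 223 CPM, under the median of 312, and cluster 11 had 355, above it. Across the 11 T-lineage clusters Irf1 and Ifng had an r of -0.80 in LYZKL and -0.55 in WTKL.

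Irf1 passed 1.5-fold in 3 of 17 clusters, each higher in LYZKL. In cluster 9, whose leading genes include G0s2 and Siglecf, it was 1528 CPM in LYZKL (149 cells) and 590 in WTKL (510 cells), a log2 ratio of 1.37 (1.24 to 1.51). That cluster differed widely, with 22.3% of its genes past the fold. In its cells without T cell RNA Irf1 was 1712 CPM in LYZKL and 568 in WTKL (1.59, 1.42 to 1.77). The immediate early genes Fos and Egr1, which respond to handling as well as to stimulation, were lower there: Fos 793 CPM in LYZKL and 2382 in WTKL, Egr1 727 and 1354, and their part in the ratio was not tested. In the neighbouring clusters 7 and 8 the log2 ratios were -0.10 and 0.19, where 14.0 and 10.1% of genes were past the fold. The neutrophil gate pools clusters 7, 8 and 9. It had 1317 CPM of Irf1 in LYZKL and 1006 in WTKL (0.39, 0.33 to 0.45), short of 1.5-fold. Of its cells, 108 in LYZKL and 354 in WTKL belonged to cluster 9.

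The other clusters with higher Irf1 were 6 and 14. Cluster 6 had 266 CPM in LYZKL and 158 in WTKL (0.75, 0.64 to 0.86), in a cluster with 8.30% of genes past the fold. Cluster 14 had 500 CPM in LYZKL and 312 in WTKL (0.68, 0.53 to 0.84), and 496 and 290 in cells without T cell RNA. The B cell gate gave 453 and 293 CPM, the CD4 gate 269 and 233. In the CD8 gate Irf1 was lower, 256 CPM in LYZKL and 378 in WTKL (-0.56, -0.62 to -0.51), short of 1.5-fold. The gate held 220 LYZKL and 464 WTKL cells of naive cluster 17, where Irf1 is high, and their part in the ratio was not tested.

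Socs1, the inhibitor, was highest in cluster 1 (459 CPM in LYZKL, 610 in WTKL), 3.18-fold above cluster 5 in LYZKL (2.93 to 3.45) and 3.73-fold in WTKL (3.43 to 4.06). It passed 1.5-fold in 2 of 17 clusters, 9 and 14, where Irf1 passed too. Cluster 9 had 206 CPM in LYZKL and 129 in WTKL (0.68, 0.32 to 1.02), and cluster 14 had 212 and 117 (0.86, 0.61 to 1.11). In cells without T cell RNA these ratios were 1.08 and 1.05. Over the alternatives the ratio of cluster 9 lay between 0.34 and 1.08 and passed 1.5-fold in 7 of 15. The lowest is the value of the whole neutrophil gate, with 255 CPM in LYZKL and 201 in WTKL. In 13 of 17 clusters the ratio of Socs1 was below 1, with a median over clusters of -0.15 on the log2 scale.

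In all, 14 of 112 pairs of member and cluster passed 1.5-fold (12.5%), 9 higher and 5 lower in LYZKL, against 9.35% of 138287 pairs of gene and cluster over all genes. The count is not far above that background, and 6 of the 14 are Ifng. By cluster, the members past the fold were 3 of 6 measured in cluster 14, 2 of 7 in clusters 5 and 7, 2 of 6 in cluster 9, and 1 each in clusters 1, 3, 6, 11 and 18. None passed in clusters 0, 2, 4, 8, 12, 15, 16 and 17, where 6.31, 7.60, 11.9, 10.1, 6.42, 8.55, 5.66 and 7.57% of all genes did, in that order.

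The rest of the pathway was followed with 73 other genes in 7 roles. Of 980 pairs of gene and cluster with enough UMIs, 105 were past 1.5-fold higher and 62 lower in LYZKL. That is 17.04% in all, against 9.35% over all genes. The 24 target effector genes (guanylate-binding proteins, immunity-related GTPases, antigen-processing genes, chemokines and others) made up most of the higher ones.

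More target effector genes were past the fold higher than lower in LYZKL in the naive CD4 T-like, Treg-like, CD4 T cell-like and B cell-like clusters. Of all genes, 7.60% were past the fold in cluster 2, 6.42% in cluster 12 and 9.19% in cluster 1. The share was 8.30% in cluster 6 and 8.71% in cluster 14. In naive CD4 T-like cluster 2, 12 of 22 measured were past 1.5-fold higher and 0 lower, with a median log2 ratio of 0.63, against -0.052 over all genes. Markers of other cells were lower in LYZKL in cluster 2 too: the 6 CD8 T cell markers summed to 123 CPM in LYZKL and 218 in WTKL, all 6 at least 1.5-fold lower, 5 of 7 B cell markers were lower, and the plasma cell gene Jchain was at 18.7 and 302 CPM. Their part in the counts was not tested. There Gbp2, a guanylate-binding protein, was 171 CPM in LYZKL and 56.9 in WTKL (1.59, 1.39 to 1.78), and Iigp1, an immunity-related GTPase, was 142 and 52.6 (1.44). In Treg-like cluster 12, 11 of 21 were higher and 0 lower, with a median of 0.61 against -0.0098. Of its cells, 65.5% in LYZKL and 63.0% in WTKL met the gate for Foxp3 UMIs. Trdc, a gamma-delta T cell receptor gene, was at 86.9 CPM in LYZKL and 19.3 in WTKL in it, and Gzmb at 308 and 173. What these differences contribute was not tested. Iigp1 was 267 CPM in LYZKL and 112 in WTKL there. Clusters 1 and 6 each had 7 higher and 0 lower, of 20 and 23, and cluster 6 had Cxcl10, a chemokine that draws T cells, at 123 CPM in LYZKL and 56.2 in WTKL. B cell-like cluster 14 had 6 of 20 higher and 1 lower. Clusters 0 and 18 had 2 higher each, of 22 and 21, near the 6.31 and 6.03% of all genes past the fold in them. Naive CD8 T-like cluster 17 had 62.8 CPM of Ifngr2 in LYZKL and 60.8 in WTKL. It had 0 of 21 higher and 1 lower, Ifi47 at 163 CPM in LYZKL and 255 in WTKL. That count is near the 7.57% of all genes past the fold in cluster 17.

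Neutrophil-like cluster 9 had the highest count, 17 of 20 higher and 0 lower, with a median of 0.95 against 0.045 over all genes. Cxcl10 was 811 CPM in LYZKL and 217 in WTKL (1.90, 1.69 to 2.11) and Gbp5 was 429 and 147 (1.55). T cell markers in cluster 9 summed to 109 CPM in LYZKL and 545 in WTKL, all 7 at least 1.5-fold lower, and their part in these ratios was not tested. The other neutrophil-like clusters had none higher, 0 of 23 in cluster 7 and 0 of 19 in cluster 8, where 1 was lower. Of all genes, 22.3% were past the fold in cluster 9, 14.0% in cluster 7 and 10.1% in cluster 8. The macrophage-like clusters 15 and 16 had 0 past the fold of 23 each, with median log2 ratios of 0.064 and -0.026. There 8.55 and 5.66% of all genes were past it. In cluster 16, Il18, an inducer of Ifng, was 11.8 CPM in LYZKL and 34.1 in WTKL (-1.53, -1.86 to -1.21), and in cluster 7 the interleukin 12 subunit gene Il12a was 48.9 and 90.1.

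Among the Ifng producers, clusters 11, 4 and 3 had more target effector genes past the fold lower than higher in LYZKL, and cluster 5 the reverse. Of all genes, 18.4% were past the fold in cluster 11, 11.9% in cluster 4, 8.14% in cluster 3 and 8.73% in cluster 5. The count in cluster 3 is not far above that background. Cluster 11 had 2 of 20 higher and 8 lower, with Gbp2 at 28.8 CPM in LYZKL and 96.3 in WTKL (-1.74, -2.40 to -1.14). Its interleukin 18 receptor gene Il18r1 was 533 CPM in LYZKL and 226 in WTKL. Cluster 4 had 1 of 22 higher and 4 lower, with Ifi47 at 92.3 CPM in LYZKL and 153 in WTKL and Gbp2 at 39.7 and 65.4. Cluster 3 had 0 of 22 higher and 3 lower, with Cxcl10 at 54.5 and 84.1 CPM, and the factor gene Irf7 was 23.9 and 46.2. Cluster 5 had 4 of 22 higher and 0 lower, with Iigp1 at 59.9 CPM in LYZKL and 20.5 in WTKL. Many of these targets also respond to type I interferon, so their counts do not single out interferon gamma.

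**Figure D5:**
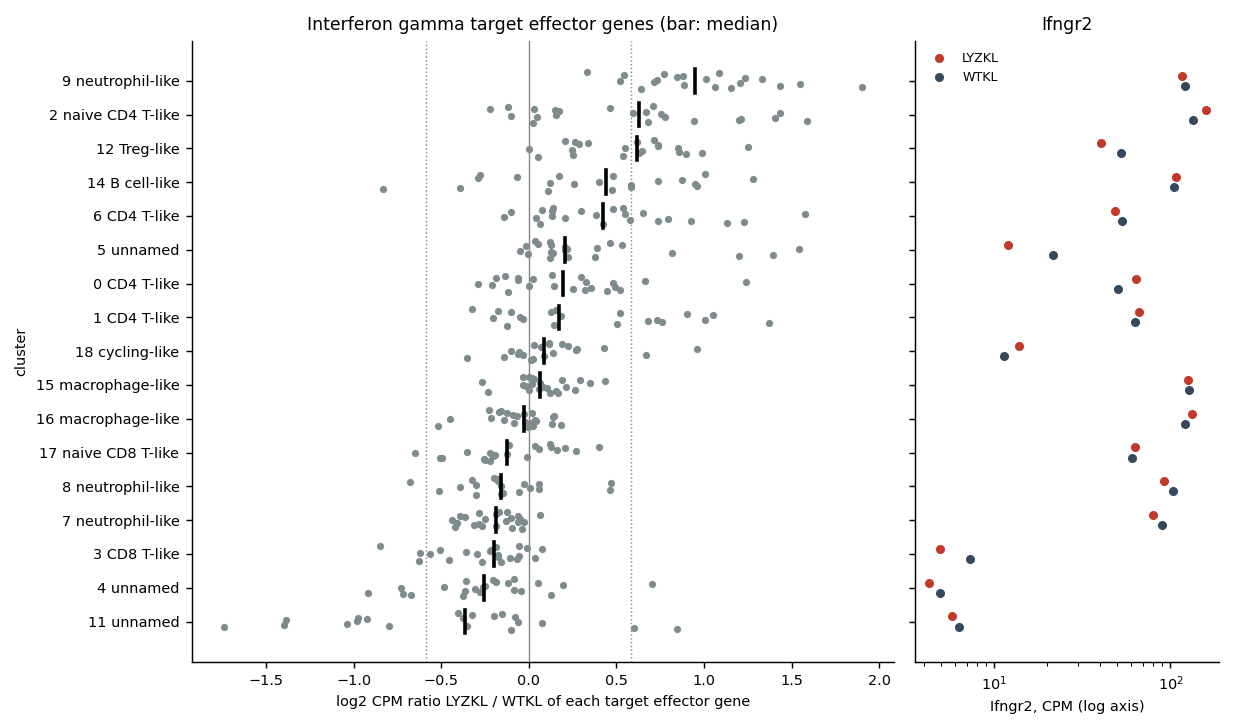
Left, log2 CPM ratio LYZKL over WTKL of each measured target effector gene (grey points) by cluster, with the median as a black bar and dotted lines at 1.5-fold; right, Ifngr2 in CPM (log axis), LYZKL in red and WTKL in blue. Medians lie highest in clusters 9, 2 and 12 and lowest in clusters 11, 4 and 3; clusters 7, 8, 15 and 16 carry Ifngr2 with medians near 0 or below.

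By the likeness of their levels over the 17 clusters and both libraries (34 values of log2(CPM + 1), 3551 genes compared), the genes nearest to Ifng were Tbx21 (Pearson r 0.88), Sema6d (0.88), Xcl1, Adgrg1 and Klrc1. Tbx21 was highest in cluster 4, with 220 CPM in LYZKL and 208 in WTKL. Nearest to Irf1 were Pgs1, Socs3 (0.85), Samhd1 (0.84), Lyst and Sbno2, all highest in neutrophil-like clusters. Nearest to Socs1 were Zc3hav1 (0.80), Nlrc5, Vps37b, Atp1b3 and Thada. These values share clusters and libraries and describe likeness over cell types only.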

How the data were processed

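Single-cell RNA of sorted tumour T cells was measured in 2 libraries, 1 per group. The authors deposited raw UMI counts per gene and barcode, made with Cell Ranger 6.1.2 on mm10, per the submitters' processing notes. From these counts, barcodes with under 500 detected genes or with over 10% of UMIs from mitochondrially coded genes were dropped. Doublets called by Scrublet, at a rate fixed at 0.8% for every 1000 cells, were dropped as well. Cells were clustered (scanpy 1.11.5, Python 3.11.15; 2000 variable genes, 30 principal components, 15 neighbours, Leiden resolution 1) without the 7 genes, the 73 pathway genes and interferon response genes. UMIs were summed per cluster and library and divided by the cluster's total, giving CPM. The libraries hold 93584629 UMIs in LYZKL and 77181312 in WTKL. Intervals are 95%, exact Poisson for CPM, Clopper-Pearson for shares and conditional binomial for ratios, and cover counting error only. With 1 library per group no test was made. Shares of positive cells were taken at 2000 UMIs per cell. Pathway genes were named per role and cluster by the largest ratio past 1.5-fold at 30 CPM or more, at most 4 a role, of which the text gives a part. Alternatives included filters, clustering settings, marker-based classes and edgeR 4.0.16 TMM scaling (R 4.3.3). Members and lists were chosen with earlier results of these data known. Promoters come from RefSeq. An allele that both groups share and a pathway gene are not reported here.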

Additional observations from a re-analysis of the deposited data

Results flagged for a closer look

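Ifng differed in opposite directions between clusters under the same comparison. The log2 ratio of LYZKL over WTKL was 1.26 in cluster 1, 0.65 in cluster 3, 0.73 in cluster 5 and 1.07 in cluster 11, but -0.80 in cluster 7 and -0.75 in cluster 18. The difference between clusters was not tested, since each group is 1 library.

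Barcodes left out of the comparisons also held Ifng. Predicted doublets had 220.6 CPM of Ifng in LYZKL and 126.5 in WTKL, with an Ifng UMI in 44.0% of them in LYZKL and 29.0% in WTKL at median depths of 8524 and 7693 UMIs. Cluster 19, a mixed cluster of 43 LYZKL and 20 WTKL cells that was not compared, had 231.1 CPM in LYZKL and 170.3 in WTKL.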

How the results depend on the processing

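No paired analysis was possible because each group is 1 library. The automatic Scrublet threshold marked no cell, so it gave no separate alternative. Removing no cell is the setting with doublets kept. Causes were not tested. In marker-based classes a cluster takes the value of a whole gate, the CD8 gate for clusters 3, 4 and 11 and the CD4 gate for clusters 1 and 5. Such a value is not a new estimate for the cluster alone. The following are log2 ratios of Ifng (LYZKL over WTKL). In cluster 7 (-0.80) the ratio changed sign at 1000 genes (0.31), 20% mitochondrial UMIs (0.18), with doublets kept (0.070), in marker-based classes (0.46) and in cells without T cell RNA (1.3003), and in cluster 1 (1.26) with 15 components (-0.000188). Cluster 3 (0.65) gave 1.204 at 200 genes, 1.61 at 1000 genes, 0.82 and 1.18 at 5 and 20% mitochondrial UMIs, 1.04 with doublets kept, 0.26 and 0.78 at resolutions 0.5 and 2, 1.40 with another seed, 0.043 with 15 components, 0.42 as a mean of cells, 0.45 thinned, 0.51 without the highest cells and 0.36 capped at 10 UMIs. Cluster 4 (-0.49) gave -0.31 at 1000 genes, -0.34 at 20% mitochondrial UMIs, with doublets kept and with another seed, -0.60 at resolution 2, -0.24 with interferon genes allowed, 0.66 in marker-based classes (1 CD8 class), -0.38 thinned and -0.23 capped. Cluster 5 (0.73) gave 0.95 at 1000 genes, 0.43 at 20% mitochondrial UMIs, 0.97 with doublets kept, 0.48 with 15 components, 1.03 in marker-based classes and 0.31 capped. Cluster 11 (1.07) gave 0.88 with doublets kept and thinned, 1.76 with interferon genes allowed, 0.66 in marker-based classes and 0.56 capped.

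Members past 1.5-fold higher in LYZKL (9) numbered 3 at resolution 0.5 and 5 in marker-based classes. Those lower (5) numbered 3 at 1000 genes, at 5% mitochondrial UMIs and as a mean of cells. They numbered 2 at 20% mitochondrial UMIs, with doublets kept and in marker-based classes. In marker-based classes the higher ones were Ifng in the CD8, CD4 and Foxp3 gates and Irf1 and Socs1 in the B cell gate. The lower ones there were Ifngr1 in the macrophage gate and Ifngr2 in the Foxp3 gate. Neither is among the lower ones found by cluster. The difference in Ifng-positive share was 11.96 points in marker-based classes for clusters 3 (3.62) and 4 (-7.36), -0.38 at 20% mitochondrial UMIs and -0.25 with doublets kept for cluster 4, and 7.57 at 1000 genes and 9.58 unthinned for cluster 5 (3.56). The share of Ifng UMIs from clusters 3, 4, 5 and 11 in LYZKL (81.1%) was 78.6% at 1000 genes, 74.7% at 20% mitochondrial UMIs, 69.4% with doublets kept, 83.6 and 81.8% at resolutions 0.5 and 2 and 69.0% with 15 components. In WTKL (66.4%) it was 69.8 and 68.6% at 200 and 1000 genes, 70.4 and 59.2% at 5 and 20% mitochondrial UMIs, 61.9% with doublets kept, 71.7 and 68.2% at resolutions 0.5 and 2, 68.9% with another seed and 58.4% with 15 components. With at least 200 UMIs, 68 pathway pairs were higher and 25 lower, and 4.03% of all pairs were past the fold, against 37.2% with no minimum.

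The other members past 1.5-fold kept their direction in every alternative that gave their cluster, but not always the fold. A re-clustering without a matching cluster of at least 100 cells in each library is left out of the numbers below. Cluster 6 was matched least often among those listed. Irf1 passed it in 9 of 10 alternatives in cluster 6 (0.21 to 0.87), 14 of 15 in cluster 9 (0.39 to 1.59) and 14 of 16 in cluster 14 (0.49 to 0.77). Socs1 passed in 7 of 15 in cluster 9 (0.34 to 1.08) and 15 of 16 in cluster 14 (0.58 to 1.05). Ifngr1 passed in 15 of 16 in cluster 7 (-0.92 to -0.25) and 11 of 16 in cluster 14 (-0.83 to -0.33), Ifngr2 in 12 of 15 in cluster 5 (-1.47 to -0.20), and Ifng in 11 of 16 in cluster 18 (-0.92 to -0.16). Depth limits Ifngr2 in clusters 3, 4 and 11, where it rests on few UMIs.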
